A study of Mus musculus with 2 samples.

Results

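Leukocyte integrins, the integrin ligand gene Icam1 and the hyaluronan receptor gene Cd44 were examined in the mouse line CH12.LX, which was established from a B-cell lymphoma. The genes are the integrin alpha subunit genes Itga4, Itgal, Itgam and Itgav, the beta subunit genes Itgb1, Itgb2, Itgb3 and Itgb7, and Icam1 and Cd44. They were chosen by symbol, and all 10 matched 1 gene each among the 43346 annotated genes. The line derives from a female of strain B10.H-2aH-4bp/Wts, and the labels describe it as the mouse analog of the human line GM12878. The data are 2 RNA sequencing libraries from separate biosamples, numbered replicates 1 and 2 in the labels, which form 1 group with no treatment and no second condition. The results are therefore levels within the line, and no test between conditions exists. The libraries held 24469094 and 23586580 expected counts, which are reads assigned to features with shared reads divided among them.

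Integrins are transmembrane receptors made of 1 alpha and 1 beta chain, and each pair of chains recognises its own set of ligands. In lymphocytes, the Itgal and Itgb2 products form LFA-1, which binds ICAM-1 and other ICAM proteins on partner cells. The Itga4 product pairs with that of Itgb1 to form VLA-4, a receptor for VCAM-1 and fibronectin, or with that of Itgb7 to form a gut-homing receptor for MAdCAM-1. Talin and kindlin bind the cytoplasmic tails of beta chains and switch integrins to the ligand-binding state. CD44 binds hyaluronan in the extracellular matrix, is linked to the actin skeleton by ezrin, radixin and moesin, and is made in many forms by alternative use of a block of variable exons.

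Much of the CD44 signal, 71.7% ± 1.65 of the gene's level (SD, n = 2), was assigned to a transcript with variable exons, and the junctions that separate its main transcripts are shown because the isoform results turn on them. All sequences are 30 bases on each side of an exon junction, 5′ to 3′ in the direction of transcription, read from GENCODE M21 transcripts on GRCm38, the assembly also named mm10. Capitals in the Cd44 lines mark bases of variable exons, so the standard form, in which the fifth exon is joined directly to the next constant exon, has none.
Cd44-203, exon 5 to constant exon (chr2:102853015-102853044 and chr2:102828581-102828610, minus strand): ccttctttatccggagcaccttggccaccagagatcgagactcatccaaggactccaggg
Cd44-207, exon 5 to its first variable exon (chr2:102853015-102853044 and chr2:102842348-102842377, minus strand): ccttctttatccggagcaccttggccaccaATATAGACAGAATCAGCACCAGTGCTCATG
Cd44-207, last variable exon to constant exon (chr2:102831330-102831359 and chr2:102828581-102828610, minus strand): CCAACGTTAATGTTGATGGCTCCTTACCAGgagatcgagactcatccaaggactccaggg

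The Itgb2 transcripts that matter differ inside the coding sequence by exon 12, which is present in Itgb2-201 and skipped in Itgb2-204. They also differ at their ends: Itgb2-201 starts 128 nt earlier and Itgb2-204 ends 22 nt later. Capitals mark bases of exon 12.
Itgb2-201, exon 11 to exon 12 (chr10:77558110-77558139 and chr10:77559479-77559508, plus strand): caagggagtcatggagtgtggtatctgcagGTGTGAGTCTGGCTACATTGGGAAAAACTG
Itgb2-201, exon 12 to exon 13 (chr10:77559694-77559723 and chr10:77560150-77560179, plus strand): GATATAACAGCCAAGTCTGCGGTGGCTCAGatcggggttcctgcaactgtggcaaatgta
Itgb2-204, exon 11 to the exon that follows exon 12 in Itgb2-201 (chr10:77558110-77558139 and chr10:77560150-77560179, plus strand): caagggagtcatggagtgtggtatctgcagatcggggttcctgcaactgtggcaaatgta

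The Itgal forms with 31 exons differ in the end of exon 18, where Itgal-201 keeps 3 more coding bases than Itgal-202, shown in capitals, and Itgal-202 starts 31 nt earlier. Itgav-201 has exons 5 and 6, shown in capitals where they join the flanking exons, and Itgav-202 lacks them, while Itgav-201 also starts 158 nt earlier.
Itgal-201, exon 18 to exon 19 (chr7:127317337-127317366 and chr7:127321895-127321924, plus strand): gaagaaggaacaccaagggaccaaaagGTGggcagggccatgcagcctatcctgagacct
Itgal-202, exon 18 to exon 19 (chr7:127317334-127317363 and chr7:127321895-127321924, plus strand): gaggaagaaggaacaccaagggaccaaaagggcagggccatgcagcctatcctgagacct
Itgav-201, exon 4 to exon 5 (chr2:83755891-83755920 and chr2:83761868-83761897, plus strand): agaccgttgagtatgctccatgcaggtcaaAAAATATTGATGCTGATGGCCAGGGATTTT
Itgav-201, exon 6 to exon 7 (chr2:83763668-83763697 and chr2:83765768-83765797, plus strand): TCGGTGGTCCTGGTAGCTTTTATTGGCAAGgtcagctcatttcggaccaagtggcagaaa
Itgav-202, exon 4 to the exon that follows exon 6 in Itgav-201 (chr2:83755891-83755920 and chr2:83765768-83765797, plus strand): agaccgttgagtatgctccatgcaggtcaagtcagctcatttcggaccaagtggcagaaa

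Of the 10 genes, 9 reached 1 TPM in both libraries. TPM gives abundance relative to transcript length with 1 fixed sum for every library, so levels of different genes can be compared. The same threshold was reached by 25.4% of all annotated genes and by 45.9% of protein-coding genes. The median level of the 10 genes was 30.8 TPM, against 0.41 TPM over all protein-coding genes and 19.2 TPM over protein-coding genes at 1 TPM or more in both libraries. The levels spanned from Itgb1, the common beta-1 chain, to Itgam, which encodes the myeloid integrin chain CD11b.

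Itgb1 (ENSMUSG00000025809.11, chromosome 8, 128685654 to 128733200, plus strand) was the highest of the set, at 97.5 TPM in replicate 1 and 103 TPM in replicate 2, from 7321 and 7445 counts. Its mean level was 100.4 ± 4.12 TPM, above 86.5% of protein-coding genes at 1 TPM or more. Itgb2, the beta-2 chain shared by the leukocyte integrins (ENSMUSG00000000290.9, chromosome 10, 77530252 to 77565708, plus strand), stood at 30.9 and 30.7 TPM from 1399 and 1329 counts. Its libraries differed by little, and the mean was 30.8 ± 0.12 TPM.

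The other beta members were low. Itgb3, which encodes the beta-3 chain of the vitronectin and platelet fibrinogen receptors (ENSMUSG00000020689.4, chromosome 11, 104608000 to 104670476, plus strand), stood at 2.26 and 2.42 TPM from 263 and 270 counts. Itgb7 (ENSMUSG00000001281.5, chromosome 15, 102215995 to 102231944, minus strand) stood at 1.3 and 1.55 TPM from 64 and 76 counts. The exact Poisson 95% intervals of those Itgb7 counts, 49.3 to 81.7 and 59.9 to 95.1, overlapped, so no difference between the libraries was detectable for Itgb7 at this depth. Of the summed TPM on 8 integrin beta genes, Itgb1 took 74.0% ± 0.852, Itgb2 22.7% ± 0.760, Itgb3 1.72% ± 0.0324 and Itgb7 1.03% ± 0.126. All intervals given here treat reads as independent and cover the counting error of reads alone. They may be too narrow, since reads lacking molecular identifiers can come from the same molecule.

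Among the alpha chains, Itga4 led. Itga4 (ENSMUSG00000027009.14, chromosome 2, 79255426 to 79333123, plus strand) stood at 41.7 and 42.5 TPM from 7980 and 7703 counts. Its mean of 42.1 ± 0.601 TPM came from the largest mean count of the 10 genes on the longest main transcript. The gene Cerkl lies on the opposite strand across part of it and held 189 and 183 counts, and reads of overlapping genes cannot be told apart if the counting did not use strand. Itgal, the LFA-1 alpha chain (ENSMUSG00000030830.14, chromosome 7, 127296260 to 127335138, plus strand), stood at 33.6 and 28.0 TPM from 3052 and 2421 counts. Replicate 1 was the higher of both, and the mean was 30.8 ± 3.95 TPM. Itgav, whose product pairs with the beta-1, beta-3 and other chains to bind vitronectin and related ligands (ENSMUSG00000027087.7, chromosome 2, 83724397 to 83806916, plus strand), stood at 12.4 and 12.7 TPM from 1177 and 1253 counts.

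Itgam, in the mouse a marker of myeloid cells and of B-1 cells in the body cavities (ENSMUSG00000030786.14, chromosome 7, 128062640 to 128118491, plus strand), was the only member under 1 TPM. It stood at 0.38 TPM in each library, from 34 counts in each, with exact Poisson 95% intervals of 23.6 to 47.5 counts. In GENCODE M21 the protein-coding gene Gm49368 overlaps Itgam on the same strand. Gm49368 was not among the genes counted, so reads of shared sequence cannot be told apart. The deposited posterior mean TPM of Itgam was 1.44 averaged over the libraries, above the threshold. That estimate placed 28.7% and 28.5% of the gene's level on Itgam-204, a form of 338 nt with 0 counts. It placed 26.18% and 26.06% on Itgam-206, of 349 nt, and 13.01% and 12.98% on a form of 477 nt that M21 lacks. Both of these also had 0 counts, so most of the posterior level lay on short forms with 0 counts. A few cells with more Itgam RNA and little RNA in every cell cannot be told apart in bulk libraries.

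The ligand and the matrix receptor were both near the top of the set. Icam1 (ENSMUSG00000037405.7, chromosome 9, 21015985 to 21028817, plus strand) stood at 75.8 and 74.5 TPM from 3672 and 3464 counts, with a mean of 75.2 ± 0.912 TPM. In GENCODE M21 the antisense gene Gm47079 overlaps Icam1 on the opposite strand and was not among the genes counted. Its reads cannot be told apart from those of Icam1 if the counting did not use strand. Cd44 (ENSMUSG00000005087.13, chromosome 2, 102811141 to 102901665, minus strand) stood at 86.1 and 71.3 TPM from 7456 and 6036 counts, with a mean of 78.7 ± 10.5 TPM. The Cd44 values lay on either side of those of Icam1.

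In order of mean level the genes were Itgb1, Cd44, Icam1, Itga4, Itgb2, Itgal, Itgav, Itgb3, Itgb7 and Itgam. Of the neighbours in this order, Cd44 and Icam1 overlapped between libraries and so did Itgb2 and Itgal, so neither pair differed beyond its spread. The other neighbours did not overlap. The widest step was from Itgav to Itgb3, a ratio of mean levels of 5.38, followed by Itgb7 to Itgam at 3.68 and Itgal to Itgav at 2.45. By posterior mean TPM the step from Itgb7 to Itgam was only 1.16, and the other steps were within 1.5 times of these.

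**Figure D1:**
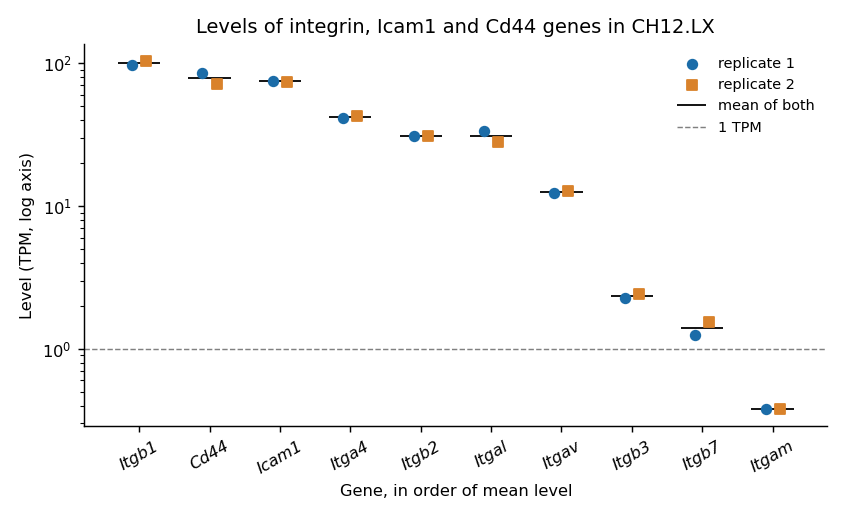
Level of each gene in TPM (log axis) in replicate 1 (circles) and replicate 2 (squares), with the mean of both as a line and 1 TPM dashed. Itgb1 was highest at 100.4 ± 4.12 TPM, and Itgam, at 0.38 TPM in each library, was the only gene under 1 TPM.

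Ratios between the genes of partner chains set these levels side by side within each library. Itgal and Itgb2, the genes of the LFA-1 chains, were close in TPM. The Itgal to Itgb2 ratio was 1.09 in replicate 1 and 0.911 in replicate 2 (mean 0.999 ± 0.124). The ratio was 1.26 when only transcripts of 1000 nt or more were counted, as 6.35 and 6.63 TPM of Itgb2 lay on shorter transcripts. By expected counts its mean was 2.00. The levels include forms without the full coding sequence, among them Itgal-203 (47.7% and 50.25% of Itgal) and Itgb2-204 (23.5% and 22.8% of Itgb2). The Itgam to Itgb2 ratio was 0.0123 and 0.0124, and its mean was 0.0469 by posterior mean TPM, so the CD11b transcript was scarce next to that of its beta chain by either estimate. All 4 alpha genes whose products pair with the beta-2 chain, Itgal, Itgam, Itgax and Itgad, summed to 1.02 ± 0.123 times Itgb2.

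The beta-1 gene exceeded its alpha partners among the members. The ratio of Itga4 to Itgb1 was 0.428 and 0.412 (mean 0.420 ± 0.0112), and that of Itgav to Itgb1 was 0.128 and 0.123 (mean 0.125 ± 0.00304). The 12 alpha genes whose products can pair with the beta-1 chain, a sum chosen after the values were seen, came to 0.761 ± 0.0239 times Itgb1. Itga4 stood at 33.4 and 27.4 times Itgb7, its other beta partner, and Itgb1 at 72.3 ± 8.02 times Itgb7. Itgav stood at 5.50 and 5.26 times Itgb3, a ratio that came to 3.80 with transcripts of 1000 nt or more only. As RNA, the LFA-1 alpha gene was below the ligand gene Icam1, with Itgal at 0.443 and 0.376 times Icam1 (mean 0.409 ± 0.0476). The mean ratio was 0.765 by expected counts, and protein was not measured.

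Between the libraries, no member differed over 1.5-fold, on the scale of log2(TPM + 0.5) as replicate 2 minus replicate 1. Among 11661 genes with a mean of 20 or more counts, which all 10 members passed, 2.69% did so, 0.858% higher and 1.84% lower in replicate 2. With that background, 0 of 10 does not set these genes apart. The median absolute difference was 0.0572 for the 10 genes and 0.135 for all genes tested. The tested genes reach down to a mean of 20 counts, and no set of matched depth was compared. On this scale 5 members were higher in replicate 2, 4 were lower and Itgam was equal, beside a median of -0.0022 over all genes tested.

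Cd44 and Itgal differed by -0.27 and -0.26 on this scale, a level 1.21 and 1.20 times lower in replicate 2, and Itgb7 by 0.23. The order of these 3 depends on the scale: as log2 CPM without a pseudocount Itgb7 was at 0.30, Itgal at -0.28 and Cd44 at -0.25. As CPM (counts scaled to a fixed library total), Cd44 came to 304.7 (exact Poisson 95% interval 298 to 312) and 256 (249.5 to 262). Itgal came to 125 (120.3 to 129) and 103 (98.6 to 107) CPM. For both genes the intervals did not overlap, so the libraries differed beyond the counting error of independent reads. Counting error was also exceeded over the whole table, with a chi-square statistic of 10.1 per degree of freedom over 9859 genes whose counts were within 0.005 of a whole number in both libraries. Itgb1 and Itgb3 differed by 0.08 each. When libraries were scaled to their ERCC spike-in RNAs, which took 0.543% and 0.446% of TPM, the median of all genes moved to 0.26, and Cd44 at 0.01 and Itgal at 0.02 then no longer fell but stayed below that median.

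**Figure D2:**
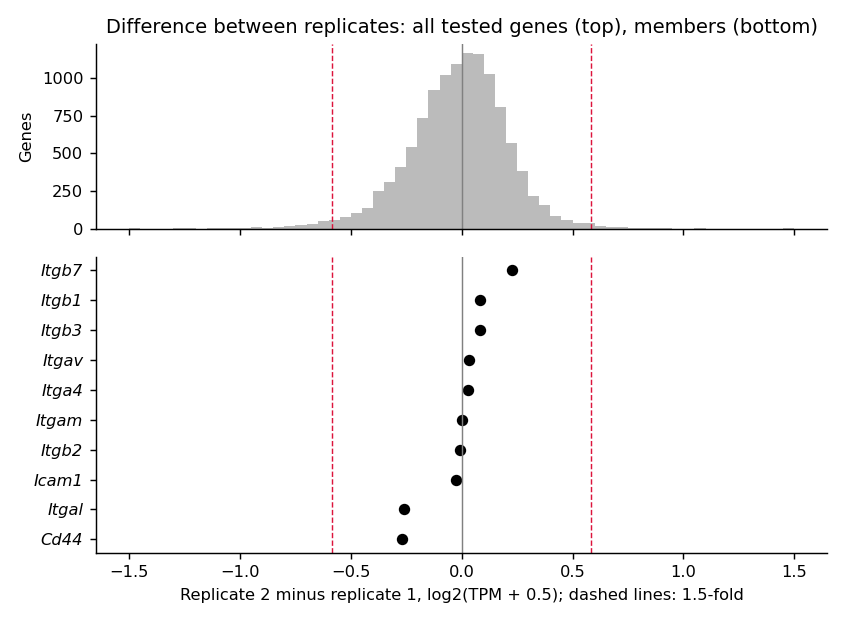
Difference between the replicates in log2(TPM + 0.5), as numbers of genes among all 11661 tested (top, values beyond the axis counted in the outer bins) and for each of the 10 genes (bottom), with 1.5-fold as dashed lines. All 10 genes lay between the dashed lines, from Cd44 at -0.27 to Itgb7 at 0.23.

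The transcript tables divided the genes into those with 1 main transcript and those spread over several. Icam1 has 1 transcript in the tables, Itgb1, Itgb3 and Itgb7 had 100% of their level on 1 of several in both libraries, and Itga4-201 held 94.8% and 93.2% of Itga4. Itgam cannot be described at this depth: of its 34 counts, Itgam-201 was given 13.6 in replicate 1 and 33.7 in replicate 2. The remaining genes, Itgal, Itgav, Itgb2 and Cd44, were divided in ways that touch the coding sequence.

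Cd44 was carried by Cd44-207 and Cd44-203. Cd44-207 was assigned 70.55% and 72.89% of the gene's level and Cd44-203, the standard form without variable exons, 26.24% and 25.11%. Counted along the gene, Cd44 has 10 variable exons, of which Cd44-207 holds the fifth, the sixth and the eighth to the tenth, 636 nt in all and each a whole number of codons. Cd44-201, with all 10 variable exons, held 0.19% and 0.42%, and Cd44-206, with the tenth only, held 1.40% and 0.25%. Transcripts with any variable exon together took 73.1% ± 1.13 of the level.

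The same transcripts also differ at their ends, and the shares rest on both. Cd44-207 runs 1406 nt further at its 3′ end and 155 nt further at its 5′ end than Cd44-203, so more of its extra length lies outside the variable exons than in them. Among the 8 annotated Cd44 forms compared, 2 reach that distal 3′ end, both with variable exons, and they held 6140 and 5058 counts. The 5 forms with variable exons and another 3′ end held 31.5 and 10.4 counts, and the form with no variable exon and another 3′ end held 1239 and 943. No annotated form joins the standard exons to the distal 3′ end. The part of the 3′ end in the assignment to Cd44-207 was not tested, as the tables hold no coverage by exon.

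**Figure D3:**
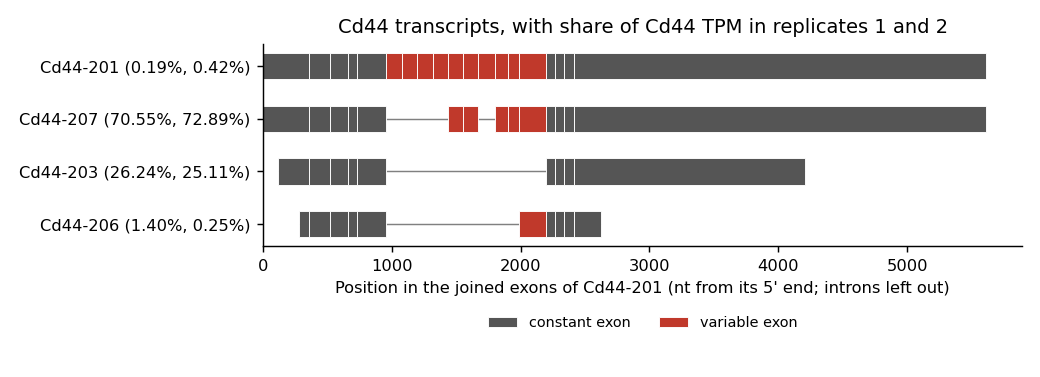
Exons of 4 Cd44 transcripts drawn to scale along the joined exons of Cd44-201 (nt from its 5′ end, introns left out, sequence upstream of Cd44-201 not drawn), with constant exons in grey and variable exons in red. The labels give the share of Cd44 level in replicates 1 and 2; Cd44-207, with 70.55% and 72.89%, has both variable exons and the long last exon, while Cd44-203, with 26.24% and 25.11%, has neither.

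Itgal was spread over forms that differ in how much of the chain they encode. Itgal-203 was assigned 47.7% and 50.25% of the level, from 1234 and 1040 counts. It starts 13227 nt downstream of the start of Itgal-201, in a first exon of its own (chromosome 7, 127309518 to 127309620), and lacks the first 11 exons of that form. Its annotated coding length is 2295 nt, against 3486 nt for Itgal-201. Itgal-201 and Itgal-202, which differ by the 3 bases shown above and in where they start, held 31.7% and 38.2%, and 18.2% and 8.95%. By counts, Itgal-203 held 40.4% and 43.0%, Itgal-201 36.3% and 44.0%, and Itgal-202 20.9% and 10.4%. Itgal-203 was thus below Itgal-201 by counts in replicate 2. The division between Itgal-201 and Itgal-202 was uncertain. In replicate 1 the deposited posterior SD was 148 counts on the 1107 of Itgal-201 and 150 on the 637 of Itgal-202. It was 53.3 on the 1234 of Itgal-203. The first exon of Itgal-203 is 103 nt of its 3909 nt. The part of uneven coverage along the gene in its share was not tested, as no coverage by exon was available.

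Itgb2-201, the form with the full coding length of 2310 nt, held 55.3% and 55.7% of the Itgb2 level. Itgb2-204 held 23.5% and 22.8%, from 364 and 336 counts with a posterior SD of 58.1 in each. It lacks exon 12 (chromosome 10, 77559479 to 77559723), which is 245 nt and not a whole number of codons, and it is annotated as subject to nonsense-mediated decay, the removal of RNAs with early stop codons. The short form Itgb2-202, of 630 nt, took 14.9% and 18.9% of the level on only 39.2 and 47.5 counts, because TPM divides by length. By counts, Itgb2-201 held 70.5% ± 0.585 and Itgb2-204 25.7% ± 0.505.

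Itgav showed the same effect of short forms more strongly. Itgav-202, which lacks exons 5 and 6 (together 108 nt, a whole number of codons), held 38.9% and 34.1%, and the full form Itgav-201 held 27.2% and 37.0%. Itgav-202 was the larger in replicate 1 and Itgav-201 in replicate 2, and the posterior SDs of both were 101 and 127 counts in the libraries. Itgav-205, a form of 463 nt, took 29.7% and 19.5% of the level on 18.5 and 11.98 counts, which were 1.58% and 0.956% of the counts. Without transcripts under 1000 nt the Itgav level was 8.38 and 9.43 TPM, a mean of 8.90 ± 0.742 in place of 12.6 ± 0.212.

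**Figure D4:**
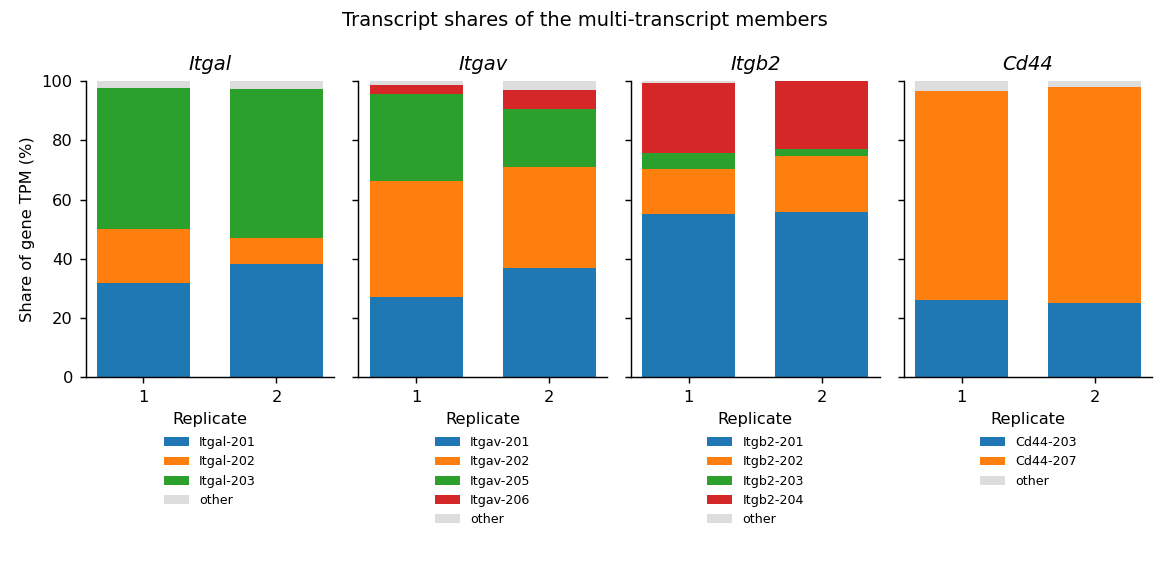
Share of gene level (percent of the gene's TPM) on each transcript in replicates 1 and 2 for the 4 genes divided over several transcripts; transcripts under 5% in both libraries are pooled in grey. By level the leading forms were Itgal-203 (47.7% and 50.25%), Itgb2-201 (55.3% and 55.7%) and Cd44-207 (70.55% and 72.89%), while Itgav had no form over 40% in either library. By counts, Itgal-203 held 40.4% and 43.0% and Itgal-201 36.3% and 44.0%.

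Of the 14 other integrin alpha genes 3 (21.4%) reached 1 TPM in both libraries, beside 45.9% of all protein-coding genes, and each of the 3 encodes a chain that pairs with the beta-1 chain. They were the laminin receptor chain gene Itga6 at 8.57 ± 0.318 TPM, Itga8, whose product binds matrix proteins such as nephronectin, at 8.11 ± 0.0424 TPM, and Itga3, also a laminin receptor chain gene, at 4.35 ± 0.177 TPM. Itga5, the fibronectin receptor chain gene, stood at 0.065 ± 0.0212 TPM. The other beta-2 partner genes Itgax and Itgad stood at 0.23 ± 0.0424 and 0.005 ± 0.00707 TPM, and Itgae, which encodes the second alpha partner of the beta-7 chain, at 0.17 ± 0.0566 TPM. None of the 4 other beta genes reached 1 TPM, with Itgb5 highest at 0.52 ± 0.141 TPM. Itgb8 had 0 counts in both libraries, which allows up to 0.0314 and 0.0327 TPM (3 counts), and so did Itgb6, which allows up to 0.083 and 0.0865 TPM.

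Of the genes that activate integrins and tie them to the cytoskeleton, 22 of 27 (81.5%) reached 1 TPM, beside 45.9% of all protein-coding genes. Their median was 11.9 TPM. The talin gene Tln1 stood at 17.1 and 17.3 TPM, while the second talin gene Tln2 was at 1.35 ± 0.0141 TPM. Fermt3, the kindlin of blood cells, stood at 34.6 and 40.5 TPM, and the kindlin genes Fermt1 and Fermt2 had 0 counts, which allows up to 0.0597 TPM for Fermt1 and up to 0.137 TPM for Fermt2 in replicate 2. The small GTPase genes Rap1b and Rap1a, which act upstream of talin, were the highest at 213 ± 16.2 and 138 ± 10.1 TPM. The parvin genes split in the same way as the kindlins, with Parvg, the form of blood cells, at 74.4 ± 1.56 TPM and Parva at 0.15 ± 0.0566 TPM. Apbb1ip, which encodes the Rap1 effector RIAM, was at 2.39 ± 0.453 TPM, and the adaptor gene Skap1 had 0 counts, whereas its relative Skap2 stood at 47.1 ± 6.88 TPM.

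Of 17 genes for integrin ligands and other adhesion receptors 5 (29.4%) reached 1 TPM, beside 45.9% of all protein-coding genes. Madcam1, the ligand of the Itga4 and Itgb7 pair and in textbooks a gene of gut and lymphoid endothelium, was the highest, at 43.0 and 38.2 TPM from 1076 and 918 counts. Icam2, another LFA-1 ligand, stood at 31.0 and 33.9 TPM, below Icam1 in both libraries. Spp1, which encodes osteopontin, a ligand of CD44 and of several integrins, stood at 20.2 ± 0.834 TPM, Selplg, the selectin ligand gene, at 10.6 ± 0.955 TPM and Vcam1 at 1.63 ± 0.0849 TPM. The fibronectin gene Fn1 had 0 counts, which allows up to 0.0372 and 0.0387 TPM, and the E-selectin gene Sele also had 0 counts.

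Among genes around CD44, 9 of 17 (52.9%) reached 1 TPM, near the 45.9% of all protein-coding genes, with a median level of 13.6 TPM. The linker genes Rdx, Ezr and Msn stood at 128 ± 12.1, 100.2 ± 8.07 and 36.8 ± 8.95 TPM, and Msn was higher in replicate 1, at 43.1 against 30.5 TPM. Cd74, the invariant chain gene, whose product forms a receptor complex with CD44, was highest at 2359 ± 165 TPM. The hyaluronan synthase genes Has1 and Has2 and the CD44-docked protease gene Mmp9 had 0 counts and Has3 stood at 0.035 ± 0.0212 TPM. Esrp1, an epithelial splicing factor gene known for promoting CD44 variable exons, stood at 0.03 TPM in each library from 1 and 2 counts, and Esrp2 had 0 counts. The splicing regulator genes Khdrbs1, whose product Sam68 is also known to promote CD44 variable exons, and Srsf1 stood at 56.1 ± 6.02 and 639 ± 19.0 TPM. Of the integrin-associated gene Cd47 and 7 tetraspanin genes, 7 of 8 (87.5%) passed. Cd53 stood at 351 ± 10.6, Cd47 at 182 ± 3.51 and Cd63 lowest at 0.07 TPM. Over these 6 lists 46 of 87 genes (52.9%), all protein-coding, reached 1 TPM, with a median of 2.39 TPM. Of all protein-coding genes 45.9% did so, with a median of 0.41 TPM, and the share in the lists is near that background.

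Markers of other cell types were compared with those of B cells. All 8 B-cell markers reached 1 TPM, from Pax5 at 8.43 ± 0.933 to Ms4a1, which encodes CD20, at 524 ± 43.5 TPM. Over 7 lists of other cell types 6 of 53 genes (11.3%) did so, beside 45.9% of all protein-coding genes. The dendritic-cell list had the highest share, 2 of 6, with Zbtb46 at 4.94 ± 0.255 and Flt3 at 2.50 ± 0.0919 TPM and Clec9a lowest at 0.01 ± 0.0141 TPM. Of 9 T-cell markers Cd3g alone passed, at 1.16 ± 0.226 TPM, and Trbc1 had 0 counts. None of 6 NK and 7 stromal markers passed, the highest being Prf1 at 0.23 ± 0.0141 and Pdgfrb at 0.40 TPM, with Eomes and Lum at 0 counts. Itgam itself was under 1 TPM, and of 11 other myeloid markers 1 passed, Adgre1 at 6.70 ± 0.552 TPM. The summed level of these 11 was 7.96 and 6.91 TPM. Cd14, S100a8, S100a9, Elane, Csf3r and Cx3cr1 were at 0 counts in both libraries, and Lyz2 had 3 and 2 counts. Beside Itgb3, 1 of 8 megakaryocyte and platelet markers passed, Gp6 at 2.68 ± 0.148 TPM, with Itga2b, the platelet partner of Itgb3, at 0.67 ± 0.0707 TPM; Pf4, Ppbp, Gp1ba, Gp1bb and Gp9 were at 0 counts. Beside Madcam1, 1 of 6 endothelial markers passed, Pecam1 at 14.8 ± 0.983 TPM, while Cdh5 stood at 0.26 ± 0.141 TPM and Kdr had 0 counts.

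**Figure D5:**
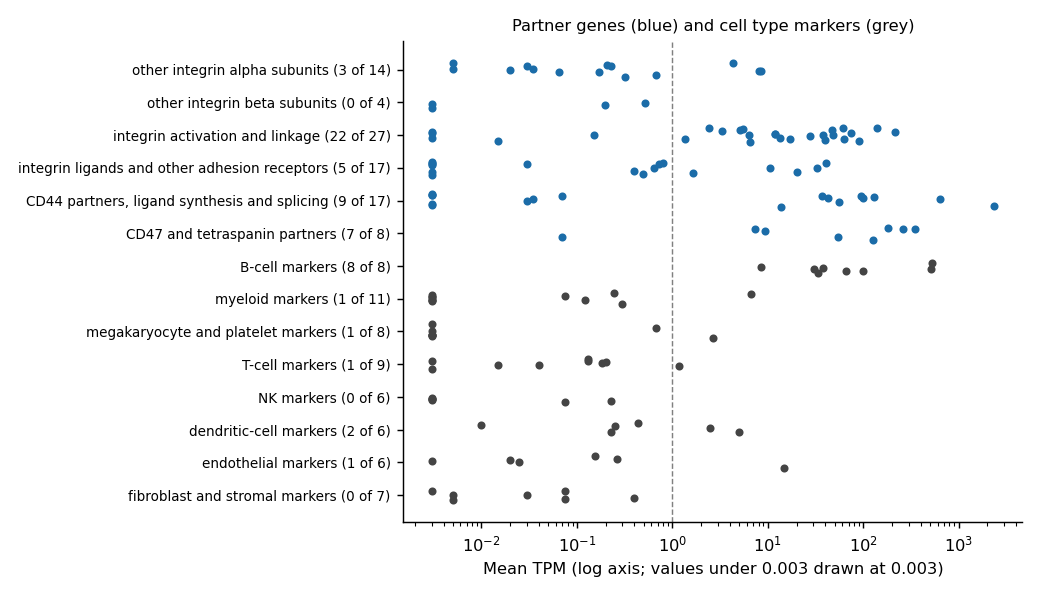
Mean level in TPM (log axis, values under 0.003 drawn at 0.003) of each gene in 6 lists of integrin and CD44 partners (blue) and 8 lists of cell type markers (grey), with 1 TPM dashed and the number at 1 TPM in both libraries in brackets. Integrin activation genes (22 of 27) and B-cell markers (8 of 8) lay mostly above the line, and myeloid (1 of 11) and platelet markers (1 of 8) mostly below it.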

How the data were processed

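RNA of CH12.LX was sequenced in 2 libraries, in 1 group. Per the labels, the assay is named total RNA sequencing while a description says poly(A)+, selected by a minimum length, and ERCC spike-ins were added. Per the text files deposited with the tables, reads were aligned to mm10 with GENCODE annotation M4. Which aligner and quantifier were used is not given in the sources used here. The authors deposited expected counts (estimated reads per feature, not normalized), TPM, FPKM and, for transcripts, an isoform percent; posterior estimates were deposited as well. Deposited credibility bounds of TPM, a signal-like value with no stated level, were not used.

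Symbols, coordinates and exons came from GENCODE M21 on GRCm38, matched by identifier without version; 42462 of 43346 genes matched. Exon structures are those of M21, and transcripts of M4 and M21 had equal lengths for every form whose junction is shown except Itgal-201 (5194 against 5195 nt). No protein sequence was used here. A gene was called expressed at 1 TPM or more in both libraries. Library differences subtract replicate 1 from replicate 2 on the log2(TPM + 0.5) scale, for genes averaging 20 counts or more; the pseudocount understates differences of low genes. With 1 library on each side no p-value was computed. The rule for calling differences was checked on simulated counts with Poisson error only, scored on highly counted genes. That check covers neither genes with low counts nor the spread beyond counting error seen between the libraries. Intervals are exact Poisson at 95%, and a count of 0 allows up to 3 counts. Values are mean ± SD over the 2 libraries.

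The members and lists were chosen with earlier results of these data known. All 10 members are named, and of each list the highest, the lowest, genes at 1 TPM among other integrin subunits, and partners of the members; the other list genes named, and the transcripts described, were chosen after their values were seen. Some genes that this rule names are not reported here. Alternatives used edgeR 4.0.16 (TMM, after rounding the expected counts), median-of-ratios factors, spike-in scaling, other thresholds, FPKM and posterior estimates. Python 3.11.15 and R 4.3.3 were used.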

Additional observations from a re-analysis of the deposited data

How the results depend on the processing

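No paired analysis was possible because the labels give 1 group, so replicate numbers pair nothing. The number of members at 1 TPM (9) and of list genes at 1 TPM (46) stayed within 1.5 times under the alternatives run for each. At a threshold of 5 TPM, which was not applied to the lists, 7 members passed. Itgam passed 1 TPM by posterior mean TPM. The number of members past 1.5-fold remained 0 under every alternative. Without 1 replicate, 9 members and 46 to 47 list genes reached 1 TPM; a difference between 2 libraries cannot be taken with 1 left out. Of all genes tested, 314 were past 1.5-fold, against 625 with ERCC scaling and 957 of 43346 with no filter. With ERCC scaling all 10 members were higher in replicate 2 (5 of 10 by TPM). Their median was then 0.289, near the 0.263 of all genes tested, so this direction does not set the members apart.

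Ratios depend on length, so expected counts gave other values: 1.06 for Itga4 to Itgb1, 113 for Itga4 to Itgb7, 2.00 for Itgal to Itgb2, 0.0249 for Itgam to Itgb2, 0.165 for Itgav to Itgb1, 4.56 for Itgav to Itgb3 and 0.765 for Itgal to Icam1. Posterior mean TPM gave 25 for Itga4 to Itgb7, 0.0469 for Itgam to Itgb2, 0.134 for Itgav to Itgb1 and 5.70 for Itgav to Itgb3. That estimate placed 18.27% and 16.03% of the Itgb7 level on Itgb7-202, a form of 406 nt with 0 counts. The cause of the other shifts was not tested. Transcripts of 1000 nt or more only, a choice made after seeing the data, gave 1.26 for Itgal to Itgb2, 0.0160 for Itgam to Itgb2, 0.0886 for Itgav to Itgb1 and 3.80 for Itgav to Itgb3. FPKM moved no ratio by more than its SD. By posterior mean the share of Itgb2-201 was 54.5% and that of Itgav-202 31.8%. Depth limits Itgam and Itgb7, at 34 and at most 76 counts a library.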
